A study of Mus musculus with 2 samples.

Results

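The genes described here are the receptor, the kinase, the transcription factor, the inhibitor and the target genes through which leukaemia inhibitory factor (LIF) acts on mouse embryonic stem (ES) cells. They are 8 of the 18193 genes named on the arrays: Lifr, Il6st, Jak1, Stat3, Socs3, Pim1, Pim3 and Sgk1. They were taken by name, with every probe set that the platform annotation assigns to that gene alone, which gave 23 probe sets, and the rule uses no measured value. Total RNA was labelled with biotin and hybridised to Affymetrix arrays, 1 for each of 2 clones of mouse E14 ES cells made to overexpress Klf5, which encodes a transcription factor of the pluripotency network. Both clones were kept undifferentiated, and both were grown in the same ES medium containing 15% fetal bovine serum and LIF. The promoter of the Klf5 transgene, the level of overexpression and the dates of culture and hybridisation are not stated in the labels. The study set these clones against wild-type ES clones deposited earlier. The wild-type data were not used here, so no value below measures an effect of Klf5.

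LIF binds its receptor LIFR, which pairs with the shared signalling chain gp130, the product of Il6st. Kinases of the JAK family bound to the receptor tails then phosphorylate the tails and STAT3, which dimerises, enters the nucleus and switches on its targets. One of those targets, Socs3, closes a negative feedback loop by binding gp130 and JAK. In mouse ES cells in serum this route sustains self-renewal, and withdrawal of LIF leads to differentiation.

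All values are deposited log2 signals. A probe set was called above background where its signal exceeded a level set from 86 probe sets of adult-tissue genes such as caseins and crystallins. This level, their 95th percentile, was 6.58 in clone 1 and 6.27 in clone 2. Differences are clone 2 minus clone 1. With 1 array per clone there is no estimate of error within a clone and no test was made. As a fixed rule of size, a gene was counted as different where the clones were 2-fold or more apart and the brighter one was above background. The affinities of probe sets differ, so the signal of no gene is set against that of another.

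All 10 markers of ES cells examined were above background in both clones. They lay between 10.12 and 14.15 and included Pou5f1 at 12.26 in clone 1 and 12.43 in clone 2. Of 31 measured markers of 6 other cell types, 5 were above background in both clones (Thy1, Pdgfrb, Dab2, Nes and Eomes) and 4 in 1 clone. Among the latter, Mesp1, a gene of early mesoderm, read 7.30 in clone 1 and was below background in clone 2 (6.04). Clone 1 was higher by at least 2.05-fold, and this was the only marker past the 2-fold rule; its part in the results below was not tested. All 5 trophectoderm markers, and the fibroblast collagens Col1a1, Col1a2 and Col3a1, were at or below 6.01. Klf5 itself read 11.61 and 12.25 on its brightest probe set, a mean of 11.93 ± 0.45 (SD, n = 2).

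All 8 LIF pathway genes were above background in both clones, where 48.9% of all named genes were. Each gene read by its brightest probe set, 0 of 8 differed 2-fold, beside 0.476% of the 9659 genes that passed background in 1 clone or both. Lifr, Il6st, Jak1, Stat3, Socs3 and Sgk1 were higher in clone 2 and Pim1 and Pim3 were higher in clone 1. That is 6 of 8, beside 63.7% of all genes that passed background in 1 clone or both, so the direction does not set these genes apart from those. The median difference of the 8 genes was 0.075, beside 0.09 over the same genes. With no background filter, 49.2% of all genes were higher in clone 2 and their median difference was 0, so the shares over all genes given here depend on the filter. Taking the mean over all probe sets of each gene, those below background included, left 3 of 8 higher in clone 2 (Lifr, Jak1 and Sgk1), with a median of -0.03. Of the 23 probe sets, 18 passed background on both arrays (34.1% of all probe sets did), 1 on that of clone 2 alone and 4 on neither. Of the 18, 11 were higher in clone 2, beside 63.3% of all probe sets that passed on at least 1 array. Their differences ran from -0.57 to 0.52 with a median of 0.035, and 9 lay within 0.15 of 0.

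**Figure D1:**
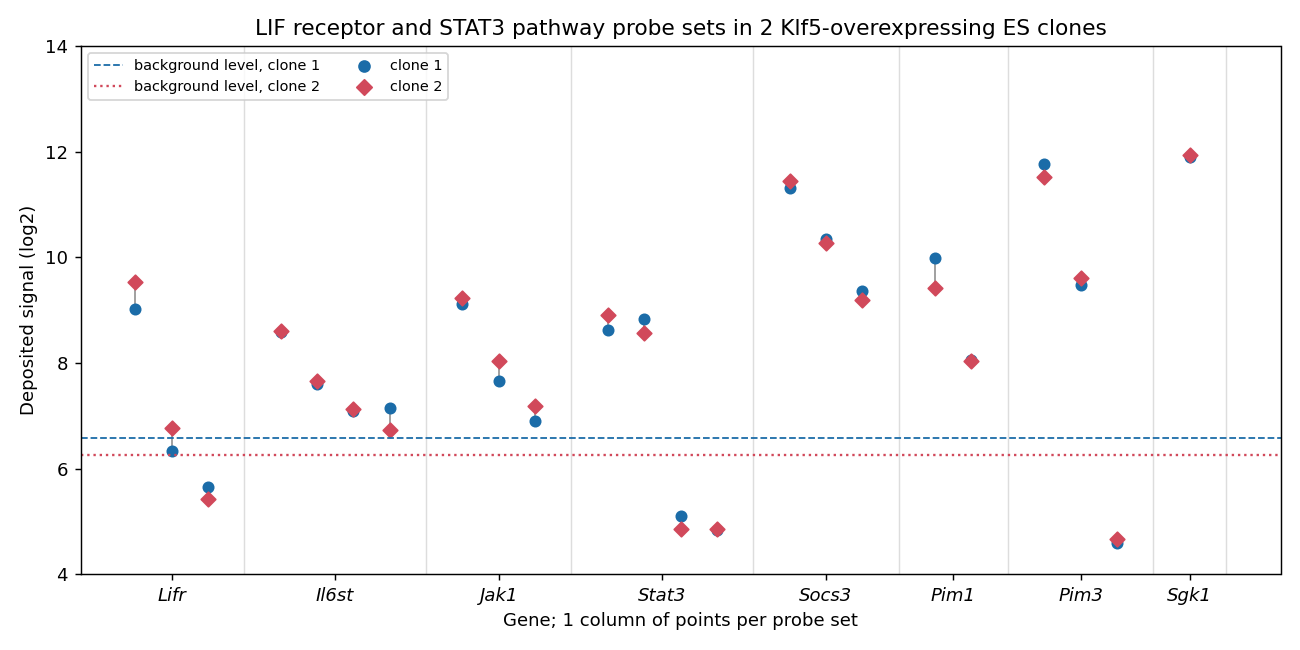
Deposited log2 signal of every probe set of the 8 genes in clone 1 (circles) and clone 2 (diamonds), 1 array each, ordered within a gene by mean signal; the dashed and dotted lines are the background levels of 6.58 and 6.27. The 2 points of a pair lie close together for most probe sets, with the widest gaps on the brightest probe sets of Lifr and Pim1.

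Lifr encodes the LIF-binding chain of the receptor. Its brightest probe set, 1454984_at, read 9.02 in clone 1 and 9.54 in clone 2 (mean 9.28 ± 0.37, SD, n = 2). Clone 2 was the brighter, by 0.52 or 1.43-fold. With all probe sets above background divided by mean signal into 4 bands of about equal number, 301 of the 4275 in its band (7.04%) differed by at least as much. A second Lifr probe set, 1425107_a_at, read 6.34 and 6.76. It was above background in clone 2 alone, at least 1.13-fold higher there when clone 1 is raised to its background level. Its signal in clone 2 also exceeded the higher level of clone 1. The remaining probe set, at 5.65 and 5.42, was above background in neither clone. Only 1 Lifr probe set was thus above background in both clones. The second passed only through clone 2, where it was brighter, so its direction adds no support to that of the first.

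Il6st encodes gp130, the chain that LIFR shares with the receptors of interleukin 6 and related cytokines. Its brightest probe set, 1452843_at, read 8.58 and 8.61. Another 2 read 7.60 and 7.65, and 7.09 and 7.12. On these 3 the clones differed by 0.03 to 0.05. The fourth, 1421239_at, read 7.14 in clone 1 and 6.73 in clone 2, lower in clone 2 with a difference of -0.41. It was designed from the same source sequence as the probe set at 7.09 and 7.12, which did not share this difference. All 4 probe sets were above background in both clones. By the brightest probe set of each receptor chain, the clones differed by 0.52 for Lifr and by 0.03 for Il6st.

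Jak1 encodes the tyrosine kinase bound to gp130 that has the main part in signalling from this receptor. Its 3 probe sets were designed from 1 source sequence, and all were above background and brighter in clone 2. They read 9.11 and 9.22, 7.65 and 8.04, and 6.91 and 7.19 in clone 1 and clone 2. The differences were 0.11, 0.39 and 0.28. Jak1 was the only one of the 8 genes with at least 2 probe sets above background in both clones that were all brighter in clone 2. Direction was shared in this way, upward or downward, by 48.9% of the 3436 genes with at least 2 such probe sets.

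Stat3 encodes the transcription factor that LIF activates. Its probe sets went opposite ways. Probe set 1460700_at read 8.63 in clone 1 and 8.91 in clone 2, higher in clone 2 with a difference of 0.28. Probe set 1426587_a_at read 8.84 and 8.57, lower in clone 2 with a difference of -0.27. The mean signals of these probe sets, 8.77 ± 0.20 and 8.71 ± 0.19 (SD, n = 2 each), lie close together, so the choice of the brighter one sets the sign for the gene. Over all 4 probe sets the mean difference was -0.05. The other 2, at 5.10 and 4.86 and at 4.83 and 4.86, were not above background. These arrays measure mRNA and hold no reading of STAT3 phosphorylation.

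Socs3 encodes the suppressor that STAT3 induces and that binds gp130 and JAK. Its 3 probe sets were all above background. The brightest, 1455899_x_at, read 11.32 and 11.44, a mean of 11.38 ± 0.08 (SD, n = 2). Another read 10.35 and 10.27. The third, 1416576_at, designed from the RefSeq transcript, read 9.37 and 9.20. The differences were 0.12, -0.08 and -0.17, so the clones were within 1.13-fold of each other on every Socs3 probe set, with no shared direction. The letter x in a probe set name marks probes that may bind other transcripts, and the brighter Socs3 probe sets both carry it.

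The promoter table of RefSeq (build GRCm38.p6) holds 15 windows for the 8 genes, each from 250 bases before to 50 bases after an annotated start. They were searched for TTCNNNGAA, the core that STAT dimers bind, which reads the same on both strands. It was found in 2 of 15 member windows, 1 of Socs3 and 1 of Sgk1, where 8.3% of all 32851 windows hold it. Those windows are printed up to the start site, because they show where matches to this core lie beside a feedback gene and a gene listed as a target. Capitals mark the match, which begins 154 bases before the Socs3 start and 223 bases before the most upstream Sgk1 start. The Socs3 bases are chr11:117969367-117969616 on the minus strand, and those of Sgk1 are chr10:21881934-21882183 on the plus strand.
Socs3: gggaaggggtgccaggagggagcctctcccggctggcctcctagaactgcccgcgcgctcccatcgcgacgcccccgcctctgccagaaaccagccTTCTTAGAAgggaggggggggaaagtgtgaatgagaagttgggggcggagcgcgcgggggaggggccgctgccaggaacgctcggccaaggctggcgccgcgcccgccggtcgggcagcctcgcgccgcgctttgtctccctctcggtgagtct
Sgk1: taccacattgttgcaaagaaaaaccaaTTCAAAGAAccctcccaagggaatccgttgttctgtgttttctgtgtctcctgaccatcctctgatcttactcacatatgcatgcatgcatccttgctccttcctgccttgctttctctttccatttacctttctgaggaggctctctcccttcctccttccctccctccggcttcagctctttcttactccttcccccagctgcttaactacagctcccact
A match describes letters and does not show binding. Which of the 6 annotated Sgk1 starts these cells use was not measured. No build is named for the arrays, so the positions belong to the promoter table alone.

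The same windows were searched on both strands for CCNCNCCC and GGGCGG, cores bound by Klf and Sp factors, which can overlap each other. Every one of the 8 genes had at least 1 window with each motif. CCNCNCCC lay in 10 of 15 windows and GGGCGG in 9 of 15, beside 49.5% and 35.7% of all windows. The 8 genes each had 1 window over 60% GC, between 60.7% and 81.3%, where the median of all windows is 52.7%. All 8 of those windows held both motifs, as did 83.9% (CCNCNCCC) and 81.0% (GGGCGG) of the 9410 windows over 60% GC, so base composition moves with these counts.

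Pim1 and Pim3 encode related serine and threonine kinases that favour survival and growth, and LIF induces both in ES cells. The brightest Pim1 probe set, 1435458_at, read 9.98 in clone 1 and 9.41 in clone 2 (mean 9.70 ± 0.40, SD, n = 2). Clone 1 was the brighter by 1.48-fold, the largest difference among the 18 probe sets above background in both clones. In its signal band 97 of 4281 probe sets (2.27%) had a difference of this size or more. The other Pim1 probe set, 1423006_at, designed from the RefSeq transcript, read 8.05 and 8.04. The difference of -0.57 on 1 probe set was thus -0.01 on the other.

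The brightest Pim3 probe set, 1437100_x_at, read 11.76 and 11.52, lower in clone 2 with a difference of -0.24. Probe set 1451069_at read 9.48 and 9.61, higher in clone 2 with a difference of 0.13. The third was not above background, at 4.60 and 4.67. Without probe sets that may bind several transcripts, Pim3 was therefore brighter in clone 2 and Socs3, at -0.17, in clone 1, each the reverse of its brightest probe set.

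Sgk1, a serum- and glucocorticoid-regulated kinase listed here among the LIF targets, had 1 probe set, which read 11.90 and 11.94. The mean was 11.92 ± 0.03 (SD, n = 2), and 3651 of 4281 probe sets in its signal band had a difference of this size or more. The 6 probe sets of the 3 target genes thus held differences of -0.57 and -0.24, and 4 others of 0.13 or less in size.

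**Figure D2:**
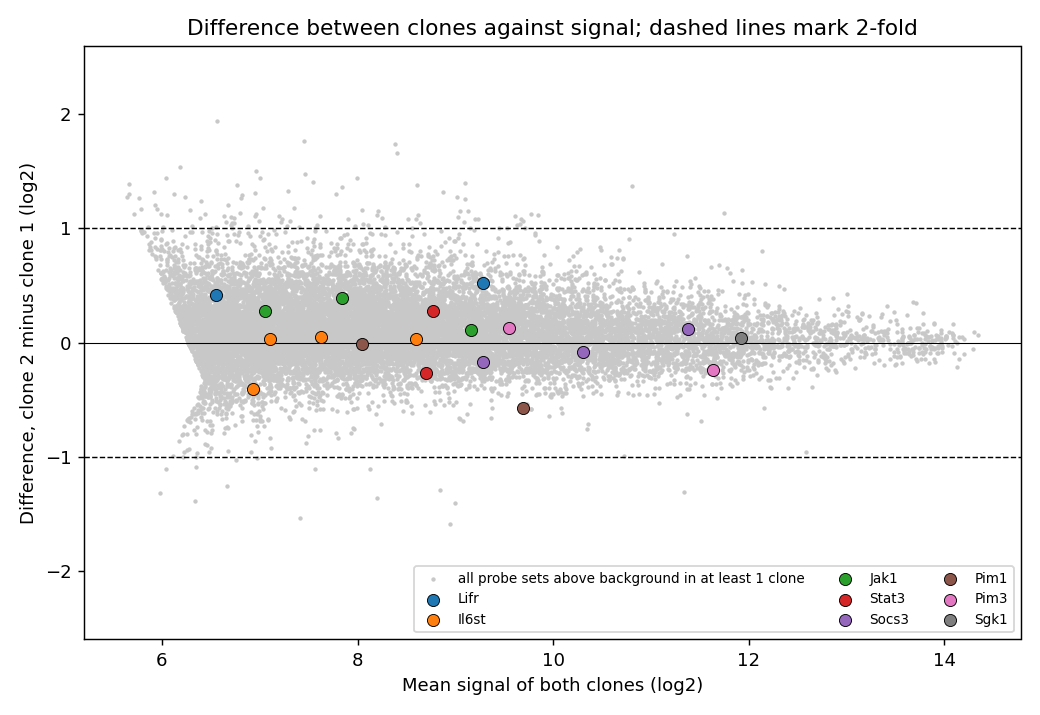
Difference between the clones (clone 2 minus clone 1, log2) against the mean signal of both, for all 17143 probe sets that passed background on at least 1 array (grey) and the 19 of the 8 genes among them (coloured by gene); dashed lines mark 2-fold. No coloured point passes 2-fold, and the brightest Pim1 probe set, at -0.57, lies at the lower edge of the grey points at its signal.

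Probe sets of 1 gene often differed in direction. Of the 6 genes with at least 2 probe sets above background in both clones, 4 (Il6st, Stat3, Socs3 and Pim3) had probe sets of both directions. The range of the differences within a gene was 0.46 for Il6st, 0.28 for Jak1, 0.55 for Stat3, 0.29 for Socs3, 0.56 for Pim1 and 0.37 for Pim3. Over all 3436 genes with such probe sets the median range was 0.27, with quartiles of 0.13 and 0.45. The ranges of Il6st, Stat3 and Pim1 lay above the upper quartile.

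How the arrays are scaled moves these small differences. Centring each array on its median moved the median difference of all genes to 0.18, and quantile and loess normalization moved it to 0 and 0.01. Over the 4 scalings, 8 of the 18 probe sets stayed brighter in clone 2: that of Lifr, the 3 of Jak1, 1 each of Stat3, Socs3 and Pim3, and that of Sgk1. Another 5 stayed brighter in clone 1: 1 each of Il6st, Stat3, Socs3, Pim1 and Pim3. The other 5, namely 3 of Il6st, 1 of Socs3 and the second of Pim1, had no fixed sign. Those brighter in clone 2 numbered 11 of 18 as deposited, 13 with median centring and 8 with quantile or loess normalization. Counted by gene, the share of all genes brighter in clone 2 moved likewise. It was 63.7% as deposited, 77.5% with median centring, 48.3% with quantile and 51.6% with loess normalization. The Lifr difference ranged from 0.415 (quantile) to 0.61 (median centring), and that of the brightest Pim1 probe set from -0.66 to -0.48.

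**Figure D3:**
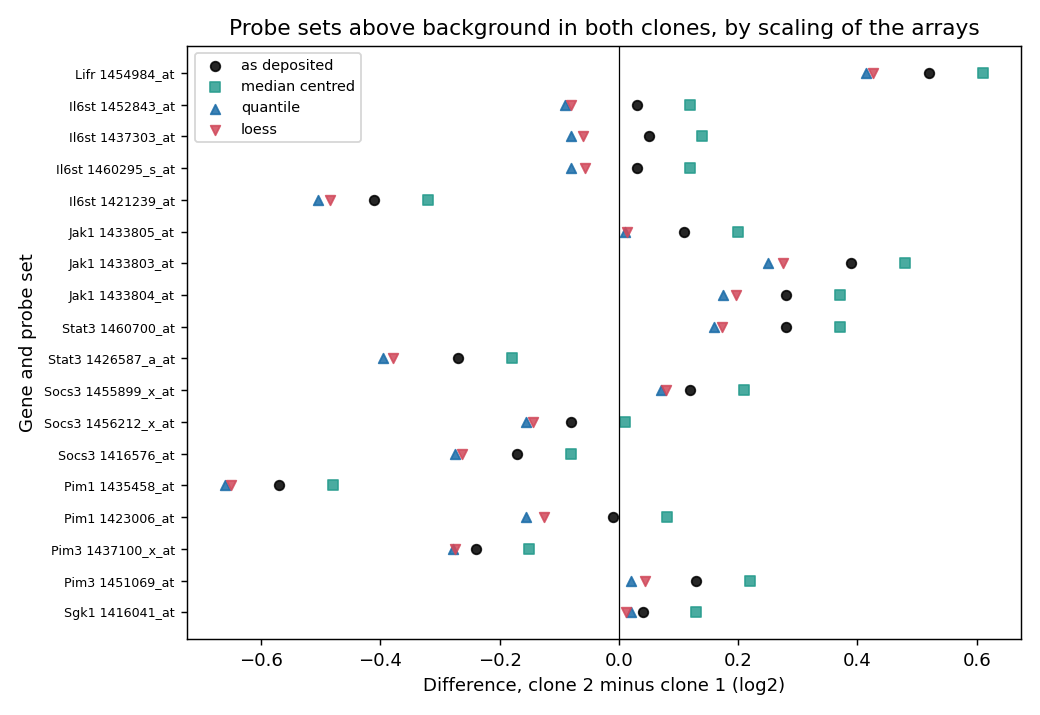
Difference between the clones (clone 2 minus clone 1, log2) of the 18 probe sets of the 8 genes above background in both clones, as deposited and under 3 other scalings of the arrays. The points of Lifr and Jak1 stay right of 0 and those of the brightest Pim1 probe set stay left, while 3 Il6st probe sets cross it.

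The wider pathway was read from a list of 61 other genes, of which 56 were measured by a probe set of their own. The remaining 5 were not analysed here. Of the 56, 42 (75%, beside 48.9% of all genes) passed background in both clones and 3 in clone 2 alone. Of these 45 genes, 30 were higher in clone 2 (66.7%, beside 63.7% of all genes), with a median of 0.16 beside 0.09 over all genes, and 0 differed 2-fold by the brightest probe set. The share follows the scaling: it was 84.4% with median centring, 57.8% with quantile and 60% with loess normalization, where all genes gave 77.5%, 48.3% and 51.6%.

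Of cytokines of the family and their private receptor chains, few passed background, where 48.9% of all genes did in both clones. Of 6 cytokine genes only Ctf1 (cardiotrophin 1) was above it, at 7.25 and 7.10. Lif itself read 5.32 and 5.46, not above background, in cells given LIF in the medium. Of 3 receptor genes only Cntfr, the ciliary neurotrophic factor receptor chain, was above background, at 7.48 and 7.17. Osmr, the chain that pairs with gp130 for oncostatin M, read 3.88 and 3.66. Il6ra, the interleukin 6 receptor chain, read 6.33 and 5.67, not above background; it passed in clone 1 with the level at the 90th percentile and in both clones with the level from sensory receptors, 5.41 and 5.07. With that last level Lif passed in clone 2, and Osmr in neither.

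The other 3 JAK genes passed background on both arrays, as did 48.9% of all genes. All 3 were brighter in clone 2 by their brightest probe sets, as were 63.7% of all genes. Jak2 read 7.25 and 7.53, Jak3 8.19 and 8.57, and Tyk2 8.11 and 8.24. The difference of Tyk2 was 0 under quantile normalization, and its second probe set, above background in clone 2 alone, was lower there (6.46 and 6.27). Of 5 other STAT genes, Stat6 (9.49 and 9.52) and Stat2 (6.84 and 7.09), STATs of interleukin 4 and of interferon signalling, were above background in both clones. Stat4 (6.20 and 6.58) passed in clone 2 alone, at a signal no higher than the level of clone 1. Stat5a (6.40 and 6.23) and Stat5b (6.19 and 6.12) were not above background in either clone. With the level at the 90th percentile, 6.20 and 6.02, Stat5a passed in both clones and Stat5b in clone 2. Stat6 was lower in clone 2 under quantile and loess normalization.

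Among inhibitors, Socs2 differed most. Socs2, a suppressor induced mainly through STAT5, read 8.58 in clone 1 and 9.34 in clone 2 on its brightest probe set (8.96 ± 0.54, SD, n = 2; 1.69-fold) and 8.17 and 8.88 on the other probe set above background in both. Both differences, 0.76 and 0.71, exceeded every one of the 8 genes. Cish, the SOCS family member also induced through STAT5, went the other way at 7.55 and 7.15. The phosphatase gene Ptpn2 read 11.02 and 10.99 (0.06 higher in clone 2 with median centring), and Pias2, of the family of protein inhibitors of activated STAT, 10.77 and 10.58. The other Pias2 probe sets read 8.67 and 8.90, and 8.61 and 8.57, so they did not share 1 direction. In all, 14 of 15 inhibitor genes were above background in both clones, beside 48.9% of all genes. Of the 14, 7 were higher in each clone, where 63.7% of all genes were higher in clone 2. The exception, Socs1, read 5.10 and 5.52. Socs3 thus differed by 0.12 beside 0.76 for Socs2 and -0.40 for Cish.

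LIF also signals through the phosphatidylinositol 3-kinase and ERK branches. Of 8 genes of these branches, Pik3r1 (6.52 and 6.44) passed background in clone 2 alone, where the level is lower, though its signal was lower there. The other 7 were above background on both arrays, and 6 of the 8 were brighter in clone 2. Over all genes these shares were 48.9% in both clones and 63.7% brighter in clone 2. Pik3ca, a catalytic subunit of phosphatidylinositol 3-kinase, read 6.98 and 7.57 on its brightest probe set, and 0.55 higher in clone 2 on a second. Sos1, a Ras exchange factor, read 7.26 and 7.82, and 0.13 higher on a second. The adaptor Gab1 read 12.15 and 12.07 and the kinase Map2k1 10.72 and 10.88. Gab1 turned to 0.01 higher in clone 2 with median centring.

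Of 16 further LIF or STAT3 targets, 14 were above background in both clones, beside 48.9% of all genes. Of the 15 above it in at least 1 clone, 11 were brighter in clone 2, beside 63.7% of all genes. The 4 brighter in clone 1 by the brightest probe set were Junb, Sgk2, Sgk3 and Ier3. The other Sgk3 probe sets, above background in both clones, were 0.13 and 0.02 higher in clone 2. Klf4, a transcription factor downstream of STAT3, read 11.16 and 11.67, and its other probe set 9.29 and 10.41. That difference of 1.12 met the 2-fold rule, as did 1 probe set of Pik3ca at 5.20 and 6.37, which passed background in clone 2 alone and below the level of clone 1. They were 2 of the 81 probe sets of the wider list that passed on at least 1 array, beside 0.7% of all such probe sets, and were singled out after their values were seen. The repressor gene Bcl6 read 6.15 and 6.96 on its brightest probe set, above background in clone 2 alone and at least 1.3-fold higher there. Its other probe set, at 5.29 and 4.52, was above background in neither clone and went the other way. Mcl1, a survival factor of the BCL2 family, read 12.25 and 12.37. Of 20 genes of the wider list with at least 2 probe sets above background in both clones, 14 had all of them brighter in clone 2, 2 all brighter in clone 1 and 4 both, so 16 of 20 had 1 direction, beside 48.9% of all genes with such probe sets. This count was made on deposited values only, and some differences were small, such as 0.03 and 0.04 for Grb2. Among all probe sets of the list above background in both clones, 54 were brighter in clone 2 and 17 in clone 1 as deposited. These numbers were 42 and 26 with quantile normalization, 45 and 26 with loess, and 62 and 8 with median centring. As deposited, 63.3% of all probe sets that passed on at least 1 array were brighter in clone 2. Counted by gene, the share over all genes was 48.3% with quantile normalization, 51.6% with loess and 77.5% with median centring, so the counts follow the scaling. The promoter table was matched for 44 genes of the wider list, and TTCNNNGAA lay in 6 of their 60 windows (10%, beside 8.3% of all windows), those of Bcl6, Cish, Gab1 and Zfp36.

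**Figure D4:**
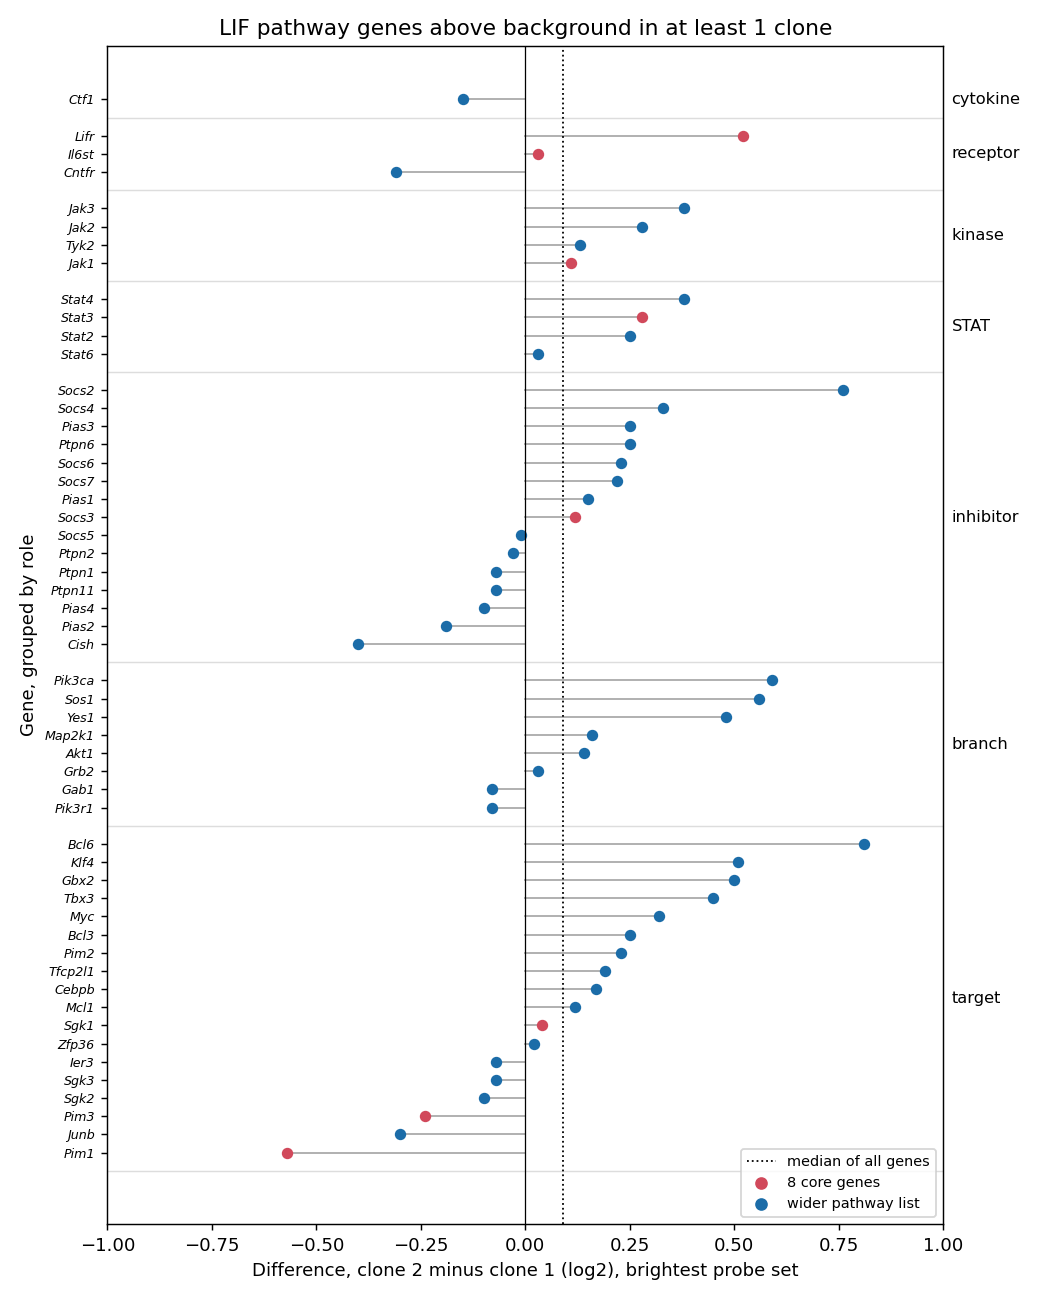
Difference between the clones (clone 2 minus clone 1, log2, brightest probe set) for the 8 core genes (red) and the 45 genes of the wider list that passed background in 1 clone or both (blue), by role; "branch" marks the phosphatidylinositol 3-kinase and ERK genes, and the dotted line is the median of all genes, 0.09. Bcl6, above background in clone 2 alone, is drawn at its measured difference of 0.81, and Pim1 is the lowest at -0.57.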

How the data were processed

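The authors deposited log2 signals of 45037 probe sets for each array. Transcriptome Analysis Console is the tool named per the submitters' processing notes. Summarisation, normalization and log base are not stated there; base 2 was inferred because the values run from 2.21 to 14.38. The column medians were 5.27 and 5.18, so the columns are not quantile normalized to each other. Direction and centring between arrays beyond this are unknown.

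The platform annotation gives 1 gene symbol to 34945 probe sets, which were used, and several symbols to 932; the other 9160 stay unnamed here. Entrez identifiers of 34741 matched the gene table of GRCm38.p6, which changed 0 symbols. A gene was represented by the probe set with the highest mean of both arrays. Background came from 86 probe sets of 53 measured genes of adult tissues, 3 of which were themselves above it in both clones. SDs are over the 2 clones, and the labels do not say whether these were cultured independently on separate days. Precision is limited by the number of arrays.

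The clones form 1 group, with no second group and no replicate array within a clone, so no p-value was computed. The calling and scaling steps were tested on simulated data. The differences planted there exceeded 2-fold, so that check does not bear on the smaller ones described here. The genes and lists were chosen with earlier results of these data known. Named were all probe sets of the 8 genes, the brightest Klf5 probe set and, for each role of the wider list, the 2 genes with the largest difference and the 2 with the highest signal among those above background; Lif, Osmr, Il6ra, Socs1, Stat5a, Stat5b, Pik3r1, Junb, Sgk2, Sgk3, Ier3 and Mesp1 were named after their values were seen, as were the motif-bearing genes. Alternatives covered scaling, background, probe set choice and each clone alone. Python 3.11.15, pandas 2.3.3, numpy 2.4.6 and statsmodels 0.14.6 (lowess, span 0.3) were used.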

Additional observations from a re-analysis of the deposited data

How the results depend on the processing

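The count of core genes higher in clone 2, 6 of 8 by the brightest probe set, was 3 with the mean over probe sets and 5 with quantile or loess normalization, where Il6st was lower in clone 2. Il6st, Stat3 and Socs3 were lower in clone 2 with the mean over probe sets. All 8 core genes were above background in both clones with the level at the 90th or 99th percentile or from sensory receptor probe sets, the last chosen after the data were seen. Only the 99th percentile lies above the main level, so only it could have lowered this count. Leaving out either clone left 8 core genes above background and 42 to 45 of the wider list. Neither count could fall below that for both clones together. The 42 genes of the wider list above background in both clones became 44 and 28 with the 90th and 99th percentile, 29 when probe sets were averaged and 50 with the sensory receptor level. Neither the core genes nor the wider list had a gene that differed 2-fold by its representative value under the alternatives of scaling, background and probe set. Over all genes the count of such differences was 46, and 30 with loess, 84 with the sensory receptor level, 25 with the 99th percentile as background, 186 unfiltered and 23 when probe sets were averaged. No paired analysis was possible because both arrays belong to 1 group. Differences cannot be computed with a clone left out, and with 1 array per clone a difference between clones and one between hybridisations cannot be told apart.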
